A study of Homo sapiens with 62 samples.

Results

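dTAGv-1-NEG is the inactive partner of dTAGv-1, and the 8 libraries described here compare it with its solvent, DMSO, in T3M-4 cells. They were 4 NEG and 4 DMSO libraries, chosen by cell line, treatment and the 4 h time in the sample labels, out of 20 T3M-4 libraries and 62 libraries in the whole series. The labels give every T3M-4 library used here the genotype FKBP12-F36V-FLAG-KLF5_sgEndogenousKLF5, so NEG and DMSO cells alike carried a lentiviral KLF5 fused to FKBP12-F36V and FLAG, Cas9, and guides against the endogenous KLF5 gene. The selected cells were pools of infected cells rather than a named clone, as far as the methods describe them. The dTAG and CB6644 libraries named further on came from the same cells and the same time, with 4 libraries each. The NEG and dTAG cells received the same concentration of compound. T3M-4 is an established human pancreatic cancer line used as a model of the basal-like subtype. Each group was made up of 2 libraries from each of 2 experiments, the experiment being the first part of the replicate number and the batch in the labels. Whether the libraries within an experiment came from separate cultures is not given in the labels, and the study's text uses the term biological replicate both for experiments and for libraries within one, so p-values may measure technical spread in part.

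dTAGv-1 is a heterobifunctional molecule. Its first end binds the F36V mutant of FKBP12, and the other recruits the von Hippel-Lindau (VHL) ubiquitin ligase, which marks the bound fusion protein for the proteasome. In dTAGv-1-NEG a change of stereochemistry in the VHL ligand abolishes binding to VHL, while the FKBP12-F36V ligand is retained, so the compound is used to show what treatment does without degradation. RNA was measured by SLAM-seq, in which 4-thiouridine given to the cells enters new RNA and is later read as a T to C change. Reads with such changes (T>C reads) stand for RNA made during the labelling, and all reads stand for the whole RNA pool at the 3′ ends of genes. In bulk samples of this kind, fewer cells and less RNA per cell cannot be told apart.

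The 8 libraries held 13562612 to 27308208 T>C reads and 111132257 to 209650478 reads in all. Levels are given as CPM, T>C counts scaled to a common library total with edgeR's normalization factors, and differences as log2 fold changes of NEG against DMSO with the experiment as a block. MALAT1, a nuclear long non-coding RNA, took 8.19% to 11.1% of all reads in experiment 1 and 3.24% to 3.82% in experiment 2, and the mitochondrial transcripts took 1.14% to 2.49%. That share sums every counted gene whose name starts with MT-. Only 2 of the 13 mitochondrial transcripts listed were in the counts, so the share does not measure all mitochondrial RNA. Markers of the basal-like state summed to 2716 to 4864 CPM in the NEG libraries and 2651 to 5116 CPM in the DMSO libraries. The 12 markers of the classical state summed to 25.5 to 67.7 CPM over the 8 libraries, with MYO1A and CLDN18 at 0 throughout. Markers of stromal cells and leukocytes summed to 7.22 to 14.2 CPM, with COL1A2, PTPRC and CD3E at 0. The levels went with the study's use of T3M-4 as a basal-like model, with little RNA of the other cell types listed.

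No gene passed the test in newly made RNA. Among 13465 genes, edgeR's quasi-likelihood test called 0 at a Benjamini-Hochberg adjusted p under 0.05 (0.0% of genes tested), and the smallest adjusted p was 0.318. At an unadjusted p under 0.05 there were 719 genes, 378 higher (2.81%) and 341 lower (2.53%) with NEG. DESeq2 on the same counts called 19, of which 13 were higher and 6 lower. The median log2 fold change over all genes was −0.01. Precision was set by 4 libraries a group: for 9199 genes, or 68.3%, the 95% interval lay within 1 log2 unit on either side of 0, which leaves the remaining genes without that bound. Without the filter on low counts edgeR called 117 of 19368 genes, so the count of 0 held only with the edgeR test and that filter together. In all reads edgeR called 0 of 15709 genes (0.0%), with 756 at an unadjusted p under 0.05, 365 higher (2.32%) and 391 lower (2.49%). DESeq2 called 11 there, and the filter-free fit called 86.

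KLF5, the transcription factor fused to the degron tag, was not distinguishable between NEG and DMSO. Its T>C level was 638 and 520 CPM in experiment 1 and 581 and 559 in experiment 2 with NEG, against 558 and 488, then 538 and 570, with DMSO. The means were 575 ± 49.4 and 538 ± 35.99 CPM (SD, n = 4 libraries each), and the groups overlapped. The log2 fold change was 0.10 ± 0.11 (SE), with a 95% interval from −0.14 to 0.33. The count covers RNA over the annotated 3′ untranslated exons of KLF5, where transcripts of the introduced construct may or may not be read, so it says nothing of the protein. With dTAG, the same measure rose by 1.00 (95% interval 0.74 to 1.27, edgeR adjusted p 0.00149) against DMSO and by 0.90 (0.63 to 1.17, adjusted p 0.00285) against NEG.

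The 2 natural proteins that the compound family could meet were also followed. FKBP1A, which encodes FKBP12 itself, had 84.0 and 70.9 CPM in experiment 1 and 154 and 185 in experiment 2 with NEG, against 64.7 and 90.6, then 168 and 134, with DMSO. The NEG and DMSO values crossed in both experiments, and the log2 fold change was 0.08 (95% interval −0.25 to 0.41). VHL, the substrate receptor of the ligase, differed by −0.13 (−0.46 to 0.21). The 13 FK506-binding protein genes tested had a median of 0.08, with 1 higher at an unadjusted p under 0.05, beside 2.81% of all genes: FKBP3, a nuclear member, at 0.40 ± 0.16. In all reads 0 of 14 reached that threshold, and the median was −0.03.

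The lists linked to VHL had medians near that of all genes. Of 10 subunits and E2 enzymes of the VHL ubiquitin ligase, 0 reached an unadjusted p under 0.05 and the median was −0.04. ELOC, which encodes the elongin C subunit, differed by −0.07 (−0.31 to 0.17). VHL is best known for removing the hypoxia-inducible factors, so 18 of their targets were examined. Their median was 0.01, with 0 higher and 1 lower at an unadjusted p under 0.05 (2.81% and 2.53% of all genes). VEGFA, the angiogenic growth factor, was at 0.05 (−0.22 to 0.32) and SLC2A1, a glucose transporter, at −0.20 (−0.48 to 0.08). The member that reached the unadjusted threshold was ADM, which encodes the vasodilator peptide adrenomedullin. ADM levels were 212 and 184 CPM in experiment 1 and 113 and 74.4 in experiment 2 with NEG, against 262 and 261, then 149 and 160, with DMSO. NEG lay below DMSO in both experiments, with a log2 fold change of −0.56 ± 0.15 (unadjusted p 0.00331, adjusted p 0.889).

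Direct KLF5 targets were the genes for which the inactive compound serves as control. The list holds 92 genes that the study drew from the dTAG and NEG libraries of this line, so it is not independent of the NEG samples. In the NEG against DMSO fit 0 of 92 were higher and 1 was lower at an unadjusted p under 0.05, set against 2.81% and 2.53% of all genes. The median was −0.05, and single genes ran from −0.74 to 0.58. The gene that was lower was NUAK2, a kinase of the AMPK family, at −0.54 ± 0.21 (unadjusted p 0.027). With 1 library left out NUAK2 ran from −0.71 to −0.30, the latter without DMSO replicate 1.2, and the unadjusted p reached 0.125. For dTAG against DMSO, which shares the DMSO libraries, the median of the same 92 genes was −1.71. The study chose these genes because they fell with dTAG against NEG, so a negative value there was set by the choice.

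Among lineage genes, the 10 basal-like identity markers had a median of −0.06 and ran from −0.42 to 0.26, with 0 at an unadjusted p under 0.05. For 4 of the 10 the 95% interval lay within 0.5 log2 units of 0. KRT6A, a keratin of basal epithelium, differed by −0.04 (−0.26 to 0.18), and S100A2, a calcium-binding protein of basal cells, by −0.14 (−0.38 to 0.10). KRT17 differed by −0.07 with a wide interval, −0.63 to 0.48. SERPINB5, which encodes maspin, had 71.1 and 163 CPM in experiment 1 and 101 and 97.0 in experiment 2 with DMSO, against 69.3 and 56.6, then 84.5 and 89.4, with NEG. Its log2 fold change was −0.54 (−1.08 to 0.00, unadjusted p 0.0516), and a single DMSO library, replicate 1.2, held the highest value. Without that library it was −0.18. ELF3, an epithelial transcription factor, was at 99.6 and 126 CPM, then 154 and 146, with NEG, against 84.1 and 84.9, then 126 and 129, with DMSO. ELF3 lay above DMSO in both experiments, at 0.33 ± 0.12 (unadjusted p 0.0193, adjusted p 0.915), while with dTAG it fell by 1.69 against DMSO (adjusted p 0.00117). In the larger published sets 4 of 137 basal-like genes were higher and 3 lower, and 1 of 98 classical genes was higher and 3 lower at an unadjusted p under 0.05, beside 2.81% and 2.53% of all genes, with medians of −0.04 and −0.03.

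Sterol synthesis genes had the highest share of members at the unadjusted threshold among the lists. The lists were chosen with earlier results of these data known, so this ranking is not independent of the data. Cells make cholesterol from acetyl-CoA through the mevalonate pathway, and when sterols in the endoplasmic reticulum fall, the transcription factor SREBP2 moves to the nucleus and switches on the genes of the enzymes. INSIG1 is both a target and a brake of that loop, since it holds the SREBP escort protein SCAP in the endoplasmic reticulum. Of the 15 genes on the list 14 passed the count filter. The one that did not was LSS, lanosterol synthase, with almost no reads. In newly made RNA all 14 had a log2 fold change above 0, 12 were higher at an unadjusted p under 0.05 (2.81% of all genes) and 0 were lower. The median was 0.98, against −0.01 for all genes, and the range was 0.12 to 2.00. edgeR called 0 of the 14 at an adjusted p under 0.05. DESeq2 called 7 of the 14, in a fit that called 19 of 13465 genes. Without the filter on low counts edgeR called 11 of 15, LSS included, in a fit that called 117 of 19368 genes. For 9 of the 14, every NEG library lay above every DMSO library in both experiments, as 3.38% of all genes did (3.56% lay below).

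**Figure D1:**
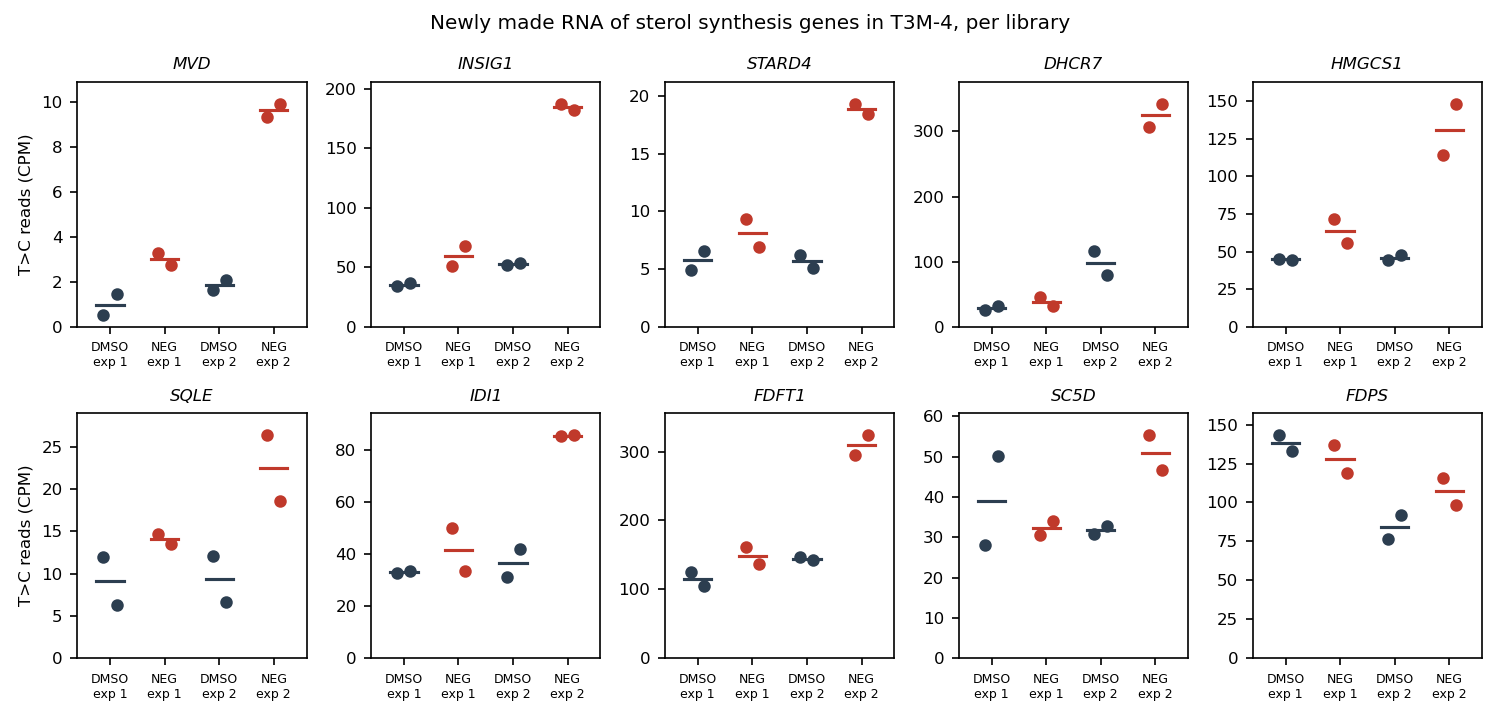
T>C level (CPM, linear axis from 0) of 10 of the sterol synthesis genes tested, 1 panel a gene, by treatment and experiment, with 1 point per library and a line at the mean of the 2 libraries. NEG points lie above DMSO points in both experiments for 6 of these genes, as for 3.38% of all genes tested (3.56% lie below). The gap is wider in experiment 2, as for INSIG1 with 187 and 183 CPM against 51.6 and 53.4.

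Promoters of INSIG1, MVD and STARD4, the listed genes that the rule named in all reads, are shown because a shared upstream element is part of how this pathway is described. Windows of 250 bases before the start were read from RefSeq (GRCh38.p14), which held 9 of the 15 listed genes: HMGCS1, INSIG1, IDI1, FDPS, LSS, DHCR7, MVD, STARD4 and SC5D. The starts are those of RefSeq. The INSIG1 window runs past the GENCODE start given below, so part of it lies within the GENCODE gene. The 5 letters CCAAT, the core of the site bound by NF-Y, were searched on both strands, and capitals mark them below (ATTGG is the same site on the opposite strand). The windows, read 5′ to 3′ on the gene's strand, are chr5:111512536-111512785 (minus strand) for STARD4, chr7:155297628-155297877 (plus strand) for INSIG1 and chr16:88663092-88663341 (minus strand) for MVD.
STARD4: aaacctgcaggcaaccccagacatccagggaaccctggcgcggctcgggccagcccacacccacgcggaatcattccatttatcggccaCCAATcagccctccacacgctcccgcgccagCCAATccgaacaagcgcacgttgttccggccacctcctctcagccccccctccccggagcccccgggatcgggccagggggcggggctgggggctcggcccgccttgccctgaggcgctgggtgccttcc
INSIG1: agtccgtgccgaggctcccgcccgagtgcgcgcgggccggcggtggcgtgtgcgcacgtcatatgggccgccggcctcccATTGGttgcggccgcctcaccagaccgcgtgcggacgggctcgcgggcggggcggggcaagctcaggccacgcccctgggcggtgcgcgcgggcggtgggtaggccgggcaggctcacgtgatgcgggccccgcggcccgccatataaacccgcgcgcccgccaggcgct
MVD: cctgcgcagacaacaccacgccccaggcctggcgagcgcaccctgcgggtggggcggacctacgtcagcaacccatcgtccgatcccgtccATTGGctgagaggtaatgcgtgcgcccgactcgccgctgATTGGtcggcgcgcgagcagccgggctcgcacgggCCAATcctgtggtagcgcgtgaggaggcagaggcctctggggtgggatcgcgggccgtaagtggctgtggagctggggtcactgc
STARD4 held 2 matches, INSIG1 1 and MVD 3. CCAAT was in 9 of 9 listed genes with a window (LSS, which was not tested, included), against 42.0% of 10353 tested genes with one and 32.01% of 35116 windows. The letters TCACNCCAC, a form of the sterol regulatory element, were in 0 of these 9 windows on either strand and in 0.883% of all windows, which says only that these letters are not in this stretch. The search was chosen after the values had been seen.

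INSIG1, the brake of the pathway (chromosome 7, from 155297776 to 155310235, plus strand, GENCODE on hg38) had 51.3 and 67.9 CPM in experiment 1 and 187 and 183 in experiment 2 with NEG, against 34.5 and 36.6, then 51.6 and 53.4, with DMSO. The lowest NEG library stood above the highest DMSO library of its own experiment. The log2 fold change was 1.29 ± 0.21, or 2.44-fold (95% interval 0.81 to 1.76, unadjusted p 0.000113, adjusted p 0.508).

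STARD4, which carries cholesterol between membranes, was at 9.33 and 6.91 CPM, then 19.3 and 18.4, with NEG, against 4.93 and 6.61, then 6.25 and 5.11, with DMSO. In experiment 1 the second NEG library was barely above the DMSO libraries, and the log2 fold change was 1.12 ± 0.29 (unadjusted p 0.00283).

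Early enzymes, which lead from acetyl-CoA to isoprenoids, came next. HMGCS1, the synthase of HMG-CoA, varied little in DMSO, with 45.1 and 44.7 CPM in experiment 1 and 44.2 and 47.7 in experiment 2. With NEG it was at 71.9 and 55.6, then 114 and 148 CPM, a log2 fold change of 1.01 ± 0.21 (unadjusted p 0.00069). MVD, the decarboxylase that makes isopentenyl diphosphate, had the highest fold change of the list, with the fewest reads behind it. Its levels were 3.29 and 2.74 CPM, then 9.36 and 9.94, with NEG, against 0.534 and 1.45, then 1.65 and 2.11, with DMSO, for 2.00 ± 0.38 (unadjusted p 0.000356). IDI1, the isomerase of that product, was at 49.9 and 33.4 CPM, then 85.4 and 85.7, with NEG, against 32.9 and 33.7, then 31.4 and 42.0, with DMSO. IDI1 overlapped in experiment 1 and differed by 0.77 ± 0.21 (unadjusted p 0.00445). FDPS, farnesyl diphosphate synthase, was at 0.12 ± 0.14 with overlapping groups.

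Enzymes of the sterol branch followed the same direction. FDFT1, squalene synthase, had 161 and 136 CPM, then 296 and 324, with NEG, against 126 and 105, then 147 and 142, with DMSO, a difference of 0.74 ± 0.16 (unadjusted p 0.000995). SQLE, squalene epoxidase, was at 14.7 and 13.6 CPM, then 26.3 and 18.6, with NEG, against 12.0 and 6.30, then 12.0 and 6.70, with DMSO. It was higher in both experiments, by 0.94 ± 0.28 (unadjusted p 0.0069). DHCR7, a reductase late in the branch, overlapped in experiment 1 with 46.3 and 31.3 against 26.3 and 32.01 CPM, and stood apart in experiment 2 with 307 and 342 against 115.9 and 80.3. Its fold change over both was 1.08 ± 0.27. SC5D, a desaturase of the branch, was at 0.20 ± 0.24 and its groups overlapped.

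The whole RNA pool carried a smaller difference. In all reads 8 of the 14 were higher at an unadjusted p under 0.05, beside 2.32% of all genes, 0 were lower, and the median was 0.40. INSIG1 had the highest fold change of the list here, with 16.2 and 19.03 CPM of all reads, then 42.9 and 36.2, with NEG, against 12.5 and 10.7, then 14.8 and 16.6, with DMSO. That was a log2 fold change of 0.97 ± 0.16, with the same order of groups in both experiments. MVD followed at 0.69 ± 0.14 and STARD4 at 0.62 ± 0.11. DHCR7 was at 0.21 (−0.07 to 0.49) in all reads.

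**Figure D2:**
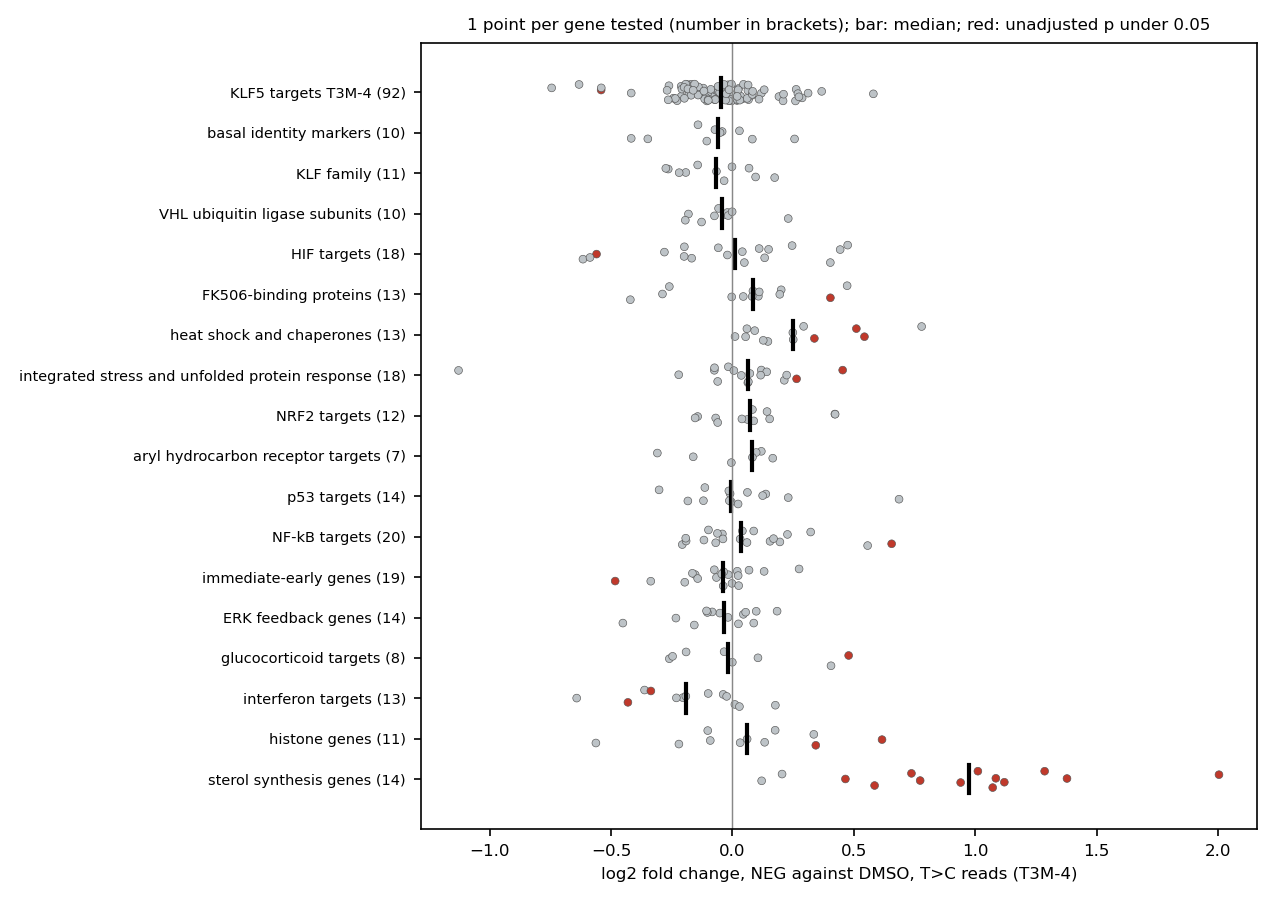
log2 fold change of NEG against DMSO in T>C reads for each tested gene of 18 gene lists, 1 point a gene, with a bar at the list's median and red points at an unadjusted p under 0.05. Medians of most lists sit near 0, while sterol synthesis genes sit at 0.98 with 12 of 14 points red.

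The difference was wider in experiment 2. In experiment 1 alone 5 of the 14 were higher and 0 lower at an unadjusted p under 0.05 (2.56% and 2.42% of all genes), with a median of 0.45. In experiment 2 alone 13 were higher and 0 lower (3.44% and 3.14% of all genes), with a median of 1.29. The test of the difference between experiments called 0 of 14440 genes after adjustment by edgeR, 982 at an unadjusted p under 0.05, and DESeq2 called 37. Among the sterol genes 9 of 14 were higher in experiment 2 at an unadjusted p under 0.05 (3.01% of all genes), and 14 of 14 differences were above 0, with a median of 0.82. INSIG1 went from 0.75 in experiment 1 to 1.82 in experiment 2, a difference of 1.07 (unadjusted p 0.00219, edgeR adjusted p 0.665), and was among the 37 that DESeq2 called. DHCR7 went from 0.42 to 1.73 (unadjusted p 0.00385, adjusted p 0.666). SC5D and FDPS had effects of opposite sign, −0.27 and 0.68 for SC5D and −0.11 and 0.35 for FDPS. Between the experiments the MALAT1 share and the level of several of these genes in DMSO differed as well, as DHCR7 shows, and their part in the result was not tested.

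**Figure D3:**
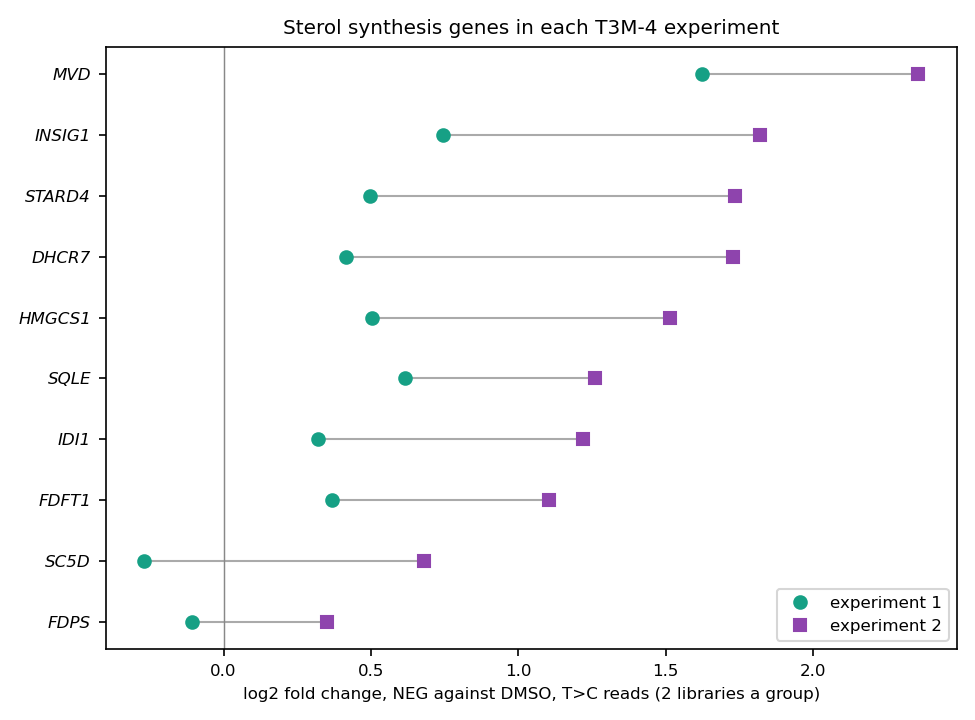
log2 fold change of NEG against DMSO in T>C reads for 10 of the sterol synthesis genes in experiment 1 (circles) and experiment 2 (squares), 2 libraries a group, from the fit with an interaction term. All 10 squares lie to the right of their circles, for instance 0.75 and 1.82 for INSIG1.

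CCN1, a matricellular protein and a known target of the YAP pathway, was the gene with the smallest p for the difference between experiments and was picked out after its values were seen. It was at 460 and 457 CPM with NEG against 257 and 297 with DMSO in experiment 1, and at 324 and 323 against 498 and 539 in experiment 2. The effects were 0.73 and −0.68, opposite in sign, and differed by −1.41 (unadjusted p 5.48e-05, edgeR adjusted p 0.212), and DESeq2 called the difference. Over both experiments they cancelled to 0.03.

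The active degrader, dTAGv-1, gives the nearest comparison, since it differs from NEG in the stereochemistry of the VHL ligand and was used at the same concentration and time. dTAG against DMSO shares the DMSO libraries with the comparison above and dTAG against NEG shares the NEG libraries, so the values are given side by side. Against DMSO, 12 of the 14 sterol genes rose with dTAG at an adjusted p under 0.05, in a fit that called 86 genes higher (0.641% of 13425) and 298 lower (2.22%), and 12 of 14 were higher at an unadjusted p under 0.05 (5.95% of all genes). The median was 1.4 with dTAG and 0.98 with NEG. Against NEG, 0 of the 14 were called, in a fit with 58 genes higher (0.432% of 13424) and 296 lower (2.21%). At an unadjusted p under 0.05, 7 of the 14 were higher with dTAG than with NEG (4.79% of all genes), with a median of 0.34.

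Gene by gene the compounds were near each other for some members and apart for others. INSIG1 rose by 1.44 with dTAG against DMSO, and dTAG differed from NEG by 0.15 (95% interval −0.19 to 0.48). MVD rose by 2.13 with dTAG against DMSO, and dTAG differed from NEG by 0.11 (−0.59 to 0.82). For both genes the upper bound of dTAG over NEG lay below 1 log2 unit, which does not show that the compounds act alike. HMGCS1 rose by 1.64 with dTAG against DMSO, and stood 0.62 above NEG (0.28 to 0.96, unadjusted p 0.00211, adjusted p 0.0669). FDFT1 stood 0.52 above NEG (0.24 to 0.80, adjusted p 0.0631), and STARD4 0.59 above (0.20 to 0.98, adjusted p 0.155). None of the 14 differences between dTAG and NEG passed the adjusted threshold.

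CB6644, an inhibitor of the RUVBL1 and RUVBL2 ATPases that has neither ligand of the degrader, was given to the same cells in the same experiments. Its concentration differed from that of NEG, so no comparison between the compounds is made. Against the same DMSO libraries, 0 of 14 sterol genes were higher at an unadjusted p under 0.05 (4.6% of all genes), and the median was −0.04. The edgeR fit called 0 of 13444 genes (0.0%), with 1230 at an unadjusted p under 0.05, 618 higher and 612 lower. DESeq2 was not run for this comparison. In the same fit 6 of 10 basal-like identity markers and 20 of 92 direct KLF5 targets were lower at that threshold, and 0 higher. The study, which used DESeq2, reported that the inhibitor suppressed basal identity genes in T3M-4 cells.

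**Figure D4:**
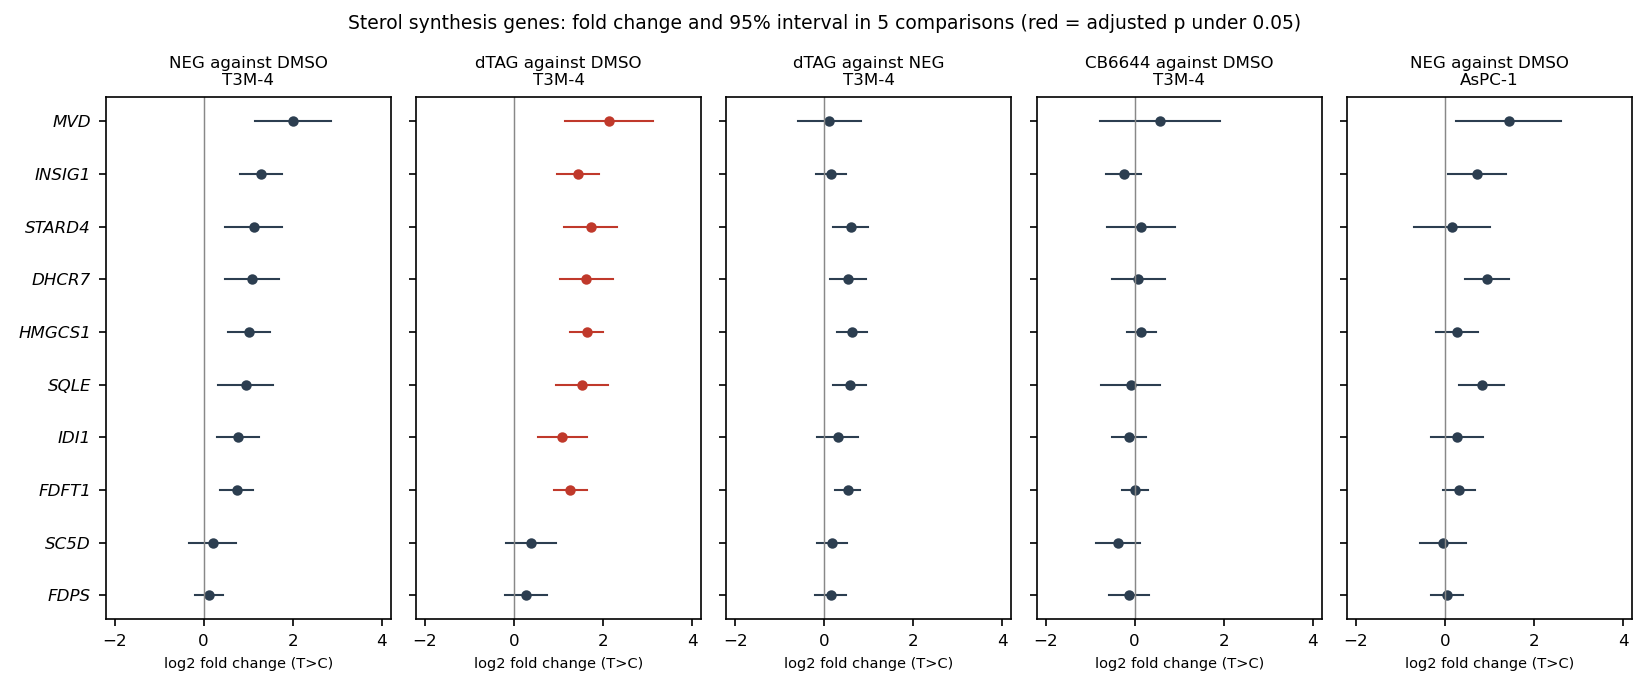
log2 fold change in T>C reads (points) with 95% intervals (lines) for 10 of the sterol synthesis genes in 5 comparisons, red where the adjusted p was under 0.05. NEG and dTAG against DMSO lie to the right of 0 for all 10 genes in T3M-4, CB6644 against DMSO is spread about 0, and NEG against DMSO in AsPC-1 lies above 0 for 9 of the 10.

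AsPC-1, a pancreatic cancer line used as a classical model with the same degron genotype, allowed the same comparison with 6 NEG and 5 DMSO libraries of experiments 1 and 2, which the labels place in 1 batch. edgeR called 0 of 11895 genes (0.0%), with 1068 at an unadjusted p under 0.05, 548 higher (4.61%) and 520 lower (4.37%), and DESeq2 called 54. Of the 14 sterol genes 7 were higher at an unadjusted p under 0.05, 0 were lower, and the median was 0.42. DHCR7 was at 0.94 ± 0.23 (unadjusted p 0.00127, adjusted p 0.493) and SQLE at 0.82 ± 0.23. FDPS was at 0.04 (−0.32 to 0.39). The sterol list was not alone in AsPC-1. Among immediate-early genes 0 of 19 were higher and 10 lower at an unadjusted p under 0.05, with a median of −0.54. The test of the difference between lines called 0 of 13880 genes after adjustment by edgeR and 780 at an unadjusted p under 0.05, and DESeq2 called 14. For the sterol genes the median difference was 0.32 higher in T3M-4, and 2 of 14 reached an unadjusted p under 0.05 (2.76% of all genes), HMGCS1 among them. No member was shown to differ between the lines at an adjusted p under 0.05.

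Lists for general stress and signalling are read against the 2.81% of all genes that were higher and the 2.53% that were lower at an unadjusted p under 0.05. Of 13 heat shock and chaperone genes all were above 0, 3 were higher at that threshold and the median was 0.25. In experiment 1 alone 6 of 13 were above 0, 0 reached the threshold (2.56% of all genes were higher) and the median was −0.02. In experiment 2 alone 14 of 14 were above 0, 8 were higher at the threshold (3.44% of all genes) and the median was 0.61. The difference between experiments was above 0 for 14 of 14, with 4 at an unadjusted p under 0.05 (3.01% of all genes). In all reads 0 of 14 reached the threshold, with a median of 0.05. HSPB1, a small heat shock protein, was at 0.54 ± 0.16, HSPH1, a nucleotide exchange factor of HSP70, at 0.51 ± 0.15, and DNAJB1, an HSP70 co-chaperone, at 0.34 ± 0.14. For DNAJB1 the groups overlapped in experiment 1 and stood apart in experiment 2. NEG had 1067 and 947 CPM against 1069 and 919 in experiment 1, and 1887 and 2019 against 1233 and 1249 in experiment 2. Integrated stress and unfolded protein response genes had 2 of 18 higher and a median of 0.06.

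Targets of the aryl hydrocarbon receptor, a sensor of foreign compounds, had 0 of 7 at an unadjusted p under 0.05 and a median of 0.08. NRF2 targets, which respond to electrophiles, had 0 of 12 and 0.07, and p53 targets had 0 of 14 and −0.01. NF-kB targets had 1 of 20 higher with a median of 0.04, glucocorticoid targets 1 of 8 higher with −0.02, and histone genes 2 of 11 higher with 0.06. ERK feedback genes had 0 of 14 and −0.04, and the KLF family 0 of 11 and −0.07. Among immediate-early genes 0 of 19 were higher and 1 lower, EGR1, a serum-response transcription factor, at −0.48 ± 0.18. In experiment 1 alone 2 of 20 were higher and 0 lower (2.56% and 2.42% of all genes), with a median of 0.11. In experiment 2 alone 0 of 19 were higher and 3 lower (3.44% and 3.14%), with a median of −0.21. For the difference between experiments, 5 of 21 were lower and 1 higher in experiment 2 at that threshold (548 and 434 of 14440 genes). Interferon targets had 0 of 13 higher and 2 lower, among them IFIT3, an antiviral protein, at −0.43 ± 0.16, with a list median of −0.19. For none of these lists did edgeR call a member at an adjusted p under 0.05.

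Mitochondrial ribosomal RNAs had effects of opposite sign in the experiments, and 0 of 2 reached the unadjusted threshold over both. MT-RNR1, the small ribosomal RNA of the mitochondrion, was at −0.42 in experiment 1 and 0.59 in experiment 2, a difference of 1.01 (unadjusted p 0.000356, edgeR adjusted p 0.459). MT-RNR2, the large one, was at −0.81 and 0.42, a difference of 1.23 (unadjusted p 0.00144, edgeR adjusted p 0.665), and DESeq2 called both differences. The share of mitochondrial transcripts in all reads was 1.14% and 1.17% with NEG against 1.63% and 2.13% with DMSO in experiment 1, and 2.29% and 2.49% against 2.15% and 2.07% in experiment 2. NEG thus lay below DMSO in the first experiment and above it in the second.

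Outside the lists, the genes of smallest p with the same sign in both experiments were named by rule and none was called by edgeR. C10orf95-AS1, a non-coding RNA, was at 26.5 and 31.6 CPM, then 51.9 and 62.0, with NEG, against 15.8 and 12.2, then 29.6 and 30.5, with DMSO. It was higher in both experiments at 0.99 ± 0.15 (unadjusted p 4.72e-05, adjusted p 0.318), but it lies opposite C10orf95, so the source of its reads is uncertain. PIEZO1, a mechanically gated cation channel that overlaps CTU2 on the other strand, was at 31.7 and 30.0 CPM, then 56.2 and 75.2, with NEG, against 18.2 and 15.8, then 40.8 and 35.7, with DMSO, for 0.82 ± 0.14 (unadjusted p 0.000168).

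Of the genes that were lower with NEG, MPC2, a subunit of the mitochondrial pyruvate carrier, was at 11.1 and 9.10 CPM, then 5.94 and 3.63, with NEG, against 18.6 and 19.5, then 10.9 and 11.4, with DMSO. NEG was below DMSO throughout each experiment, at −1.07 ± 0.21 (unadjusted p 0.000405). EIF3I, a subunit of translation initiation factor 3, was at −0.49 ± 0.11 (unadjusted p 0.00124). LRRC51, which overlaps LRTOMT on the same strand and is uncertain for that reason, was at −1.50 ± 0.28. HULC, a long non-coding RNA, was at −2.23 ± 0.52, with 1 DMSO library at 24.5 CPM and the other DMSO libraries at 4.89 to 7.84. LAMC3, a laminin chain, had 0 T>C reads in the 4 NEG libraries and 139 in the DMSO libraries, at least 48.4-fold lower when NEG is set at a floor of 3 reads over the group, whereas its all-reads difference was 0.21 (−0.78 to 1.19).

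In all reads the other named genes were PCNT, a centrosome scaffold, at 0.45 ± 0.09 and FAT2, an atypical cadherin, at 0.52 ± 0.11 on the higher side. TCF4, a basic helix-loop-helix transcription factor, was at −0.50 ± 0.10, ADAT1, a tRNA deaminase, at −0.46 ± 0.10, TLR2, an innate immune receptor, at −1.15 ± 0.26 and HSF4, a heat shock factor, at −1.50 ± 0.34. TLR2 and HSF4 lay below 4 CPM of all reads in every library. SLAMF7, a leukocyte surface receptor, had 0 T>C reads in the NEG libraries and 18 in a single DMSO library. The remaining DMSO libraries had none, so the difference in T>C reads rests on that library.

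The share of reads carrying a T>C change, which moves with the overall rate of labelling and synthesis, was not distinguishable between the groups. It was 12.7% ± 0.54 with NEG and 12.4% ± 1.56 with DMSO (SD, 4 libraries each), so NEG was 0.283 percentage points higher (two-sided exact permutation p 0.771 over 70 arrangements, adjusted p 0.771 over 2 lines). Within experiments the permutation p was 0.556, and the smallest p that design allows is 0.0556. NEG lay below DMSO in experiment 1, by −0.578, and above it in experiment 2, by 1.14. In AsPC-1 the share was 9.48% ± 0.38 with NEG and 10.1% ± 0.62 with DMSO, and NEG minus DMSO was −0.575 (two-sided exact permutation p 0.0931, adjusted p 0.186), and the exact permutation p within experiments was 0.0190.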

How the data were processed

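Counts were deposited by the authors as whole numbers, T>C reads and all reads per gene. The authors mapped reads to GENCODE 44 3′ untranslated exons on hg38, counted them with slamdunk at default settings and summed exons of a gene. Per the methods these libraries had no spike-in, so a change common to all genes cannot be seen. Columns of no sample were empty (18).

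NEG and DMSO libraries of T3M-4 were compared with edgeR 4.0.16 (R 4.3.3): filterByExpr, TMM, quasi-likelihood test, experiment as a block, Benjamini-Hochberg adjustment over all genes tested, threshold 0.05. The replicate numbers pair the samples in T3M-4 because the labels give the first number as the batch; in AsPC-1 the first number was used as the block although the labels give both experiments 1 batch. Deviations from group means (log2 of CPM + 1) correlated at 0.240 to 0.464 within an experiment and −0.462 to −0.285 across. Other comparisons used the same fit, and differences between experiments or lines an interaction term. DESeq2 1.42.0, other scalings, no filter and left-out libraries were alternatives. Scripts were tested on simulated data. No pair of libraries of a group agreed within sampling noise. The labelled share used exact permutation (scipy 1.17.1).

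Members and gene lists were chosen with earlier results of these data known. Named genes were the study's genes, the 5 of smallest p with the same sign in both experiments in each direction and read type where fewer were called, and list members; further members are outside that rule. Some list members count towards a list but are not reported here by name.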

Additional observations from a re-analysis of the deposited data

Results flagged for a closer look

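HULC had 1 DMSO library of experiment 1 at 24.5 CPM of T>C reads, far from the other 3 at 4.89 to 7.84 CPM. PCNT had 1 NEG library of experiment 2 at 114 CPM, with the other 3 at 81.4 to 84.7 CPM. FKBP3 had 1 NEG library of experiment 2 at 29.8 CPM (others 24.7 to 25.3) and MYLIP 1 at 94.2 CPM (others 117 to 120). ELOC had 1 NEG library of experiment 1 at 414 CPM (others 324 to 334), and NUAK2 1 DMSO library of experiment 1 at 21.3 CPM (others 40.5 to 42.3). These were 6 groups, 5.66% of the groups of named genes tested for such a library. Chance gives about 1 in 20 where the libraries of a group are independent. These groups span 2 experiments, so that rate is only a guide.

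The labelled share of reads differed between NEG and DMSO in opposite directions, by −0.578 percentage points in experiment 1 and 1.14 in experiment 2, with every NEG library below the DMSO libraries in experiment 1 and above them in experiment 2. The difference between the experiments was not tested.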

How the results depend on the processing

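In T>C reads DESeq2 called 19 genes and the fit without a filter 117, against 0 by edgeR. In all reads these counts were 11 and 86, in AsPC-1 DESeq2 called 54 and experiment 2 alone 2 (ERRFI1 and CCN2, lower), and for the differences between experiments and between lines DESeq2 called 37 and 14. The cause was not tested. Every other alternative run for NEG against DMSO in T3M-4 and in AsPC-1, the left-out libraries included, gave 0 calls with edgeR, and so did the difference between lines without the replicate block; no library was left out for the differences between experiments or lines. Without the replicate block edgeR also called 0 in T>C reads and 0 in all reads, with 255 and 153 genes at an unadjusted p under 0.05 in place of 719 and 756, and the sterol list had 8 and 6 members at that threshold in place of 12 and 8. The sterol list had 5 members in T>C reads and 3 in all reads in experiment 1 alone, and 11 to 13 and 7 to 9 when each library was left out, a check added after seeing the data.

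The labelled share difference in T3M-4 ran from −0.160 to 0.841 with a library left out and turned negative without either DMSO library of experiment 2 (−0.160 and −0.158). In AsPC-1 it ran from −0.749 to −0.427, and the exact permutation p was 0.0476 without DMSO replicate 2.1 (−0.749) and without 2.2 (−0.734), and 0.0190 with the replicate block (−0.575).

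Of 52 genes named in T>C reads, 42 kept their sign in all alternatives. With 1 library left out, the unadjusted p of ELF3, FKBP3, DNAJB1, IFIT3, EGR1, MYLIP, ABCA1 and NUAK2 passed 0.05, with highest values from 0.0601 to 0.138. The genes whose sign changed lay near 0: in experiment 1 alone FKBP1A was −0.0096, KRT5 0.090, KRT17 0.016, FDPS −0.11 and SC5D −0.28; in experiment 2 alone VHL was 0.077, RUVBL2 0.0033, TP63 −0.16 and ADAT1 0.021; with counts summed per experiment RUVBL2 was 0.0033 and KRT17 0.016; and with a library left out RUVBL2 reached 0.032 to 0.092, TP63 −0.11 to −0.083, KRT5 0.10, KRT17 0.26 and VEGFA −0.034 to −0.0031.

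With 2 experiments of 2 libraries a group and no spike-in, a change shared by all genes could not be seen, and for the genes outside the 68.3% with a narrow interval the interval reached a 2-fold difference.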

Other observations

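Other genes of sterol metabolism, listed after the values above had been seen and therefore given without support from them, included 25 that could be tested in T>C reads. Of these 8 were higher and 0 lower with NEG at an unadjusted p under 0.05, beside 2.81% and 2.53% of all genes, and the median was 0.31. In experiment 1 alone 2 of 25 were higher (2.56% of all genes) with a median of 0.05, in experiment 2 alone 12 of 26 (3.44%) with 0.55, and in all reads 2 of 26 (2.32%) with 0.06. SREBF2, which encodes SREBP2, had 81.3 and 68.3 CPM in experiment 1 and 94.3 and 104 in experiment 2 with NEG, against 52.99 and 55.3, then 79.0 and 65.0, with DMSO. NEG lay above DMSO in both experiments and the log2 fold change was 0.47 ± 0.12 (unadjusted p 0.00319). SCD, the stearoyl-CoA desaturase of fatty acid synthesis, was at 12.7 and 8.72 CPM, then 42.3 and 35.3, with NEG, against 8.63 and 6.97, then 10.9 and 13.0, with DMSO, for 1.09 ± 0.27. NSDHL, a demethylation enzyme of the sterol branch, was at 0.82 ± 0.21. edgeR called none of the 25 at an adjusted p under 0.05.

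Targets of the liver X receptors, which sense oxysterols and drive cholesterol export, were listed in the same way. Of 7 tested, 0 were higher and 2 lower at an unadjusted p under 0.05 (2.81% and 2.53% of all genes), with a median of −0.32. The direction was mixed, with 3 of the 7 above 0 and the highest at 0.52. In experiment 1 alone 0 were lower (2.42% of all genes) with a median of −0.12, and in experiment 2 alone 3 were (3.14%) with −0.45. MYLIP, a ubiquitin ligase, was at 118 and 117 CPM, then 94.2 and 120, with NEG, against 140 and 134, then 147 and 146, with DMSO, for −0.33 ± 0.12. ABCA1, the cholesterol exporter, was at −0.36 ± 0.15. Both values failed the adjusted threshold.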
